A study of Mus musculus with 12 samples.

Results

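SCC7 is a mouse squamous cell carcinoma line, and the 6 RNA-seq libraries described here compare SCC7 cells kept in medium conditioned by interleukin-4-treated macrophages (M2 CM, 3 libraries) with SCC7 cells kept in medium conditioned by interferon-gamma-treated macrophages (M1 CM, 3 libraries). They were chosen by their titles from the 12 libraries of the series, and every gene that passed a filter on low counts was tested, 14509 of the 55487 genes in the count table. Mouse bone marrow was the source of the macrophages. They were treated for 24 h with 20 ng/ml interleukin-4 for M2 CM or with 20 ng/ml interferon-gamma for M1 CM, and all SCC7 cells, labelled wild type, stayed in the conditioned medium for 24 h. SCC7 cells in medium of macrophages given control medium (M0 CM, 3 libraries) are quoted beside some values. The remaining 3 libraries, in TAM CM from macrophages given 75% SCC7-conditioned medium, are not compared here. All 12 libraries entered the filter on low counts, the scaling and the estimate of the spread. With only the 6 libraries of M2 CM and M1 CM 13805 genes were tested. No source used here says whether the cytokine was washed off before the medium was taken, so carried-over cytokine and macrophage products cannot be told apart. The comparison asks how the same tumour cells differ between the media of the alternatively and the classically activated macrophage.

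Interferon-gamma binds a receptor that activates the kinases JAK1 and JAK2, and the response acts through GAS and ISRE sequences. The factor IRF1 is raised in it, and IRF1 and related factors bind ISRE sequences in the promoters of antiviral, antigen-presenting and chemokine genes. Interleukin-4 binds IL-4 receptor alpha, which signals through STAT6, and in macrophages it is known for a programme of tissue repair. Tumour-associated macrophages are often described between these poles, and their secreted products act on tumour cells.

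Total counts ran from 20044695 to 21504964 in M2 CM and from 19721662 to 22469320 in M1 CM. Levels are CPM, counts scaled to a common TMM-adjusted library size. They are not divided by gene length, so a level is compared between groups for 1 gene and never between genes. Differences are log2 of M2 CM over M1 CM with their standard error (± SE), and a single number in brackets after a gene is its log2 difference. A gene is said to rise or fall in M2 CM when edgeR's quasi-likelihood test gave an adjusted p (Benjamini-Hochberg over all tested genes) under 0.05. Nothing in the labels tells whether a group's 3 libraries are separate cultures, and p-values then measure only how far these libraries spread, which may be technical.

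The third M2 CM library has SCC7 in its title and cell line but melanoma as its labelled cell type. The summed CPM of 8 melanocyte genes, nearly all of it Mitf, was 6.80 in that library, 7.34 and 5.57 in the other M2 CM libraries, and 9.81 to 13.0 in M1 CM, and Mlana, Sox10 and Slc45a2 had no count in any of the 6. Without that library 3762 genes rose and 3839 fell. Markers of the labelled tissue were few. Krt8 and Krt18 made up nearly all of a squamous and epithelial list of 13 genes, which summed to 679 to 758 CPM in M2 CM and 167 to 171 CPM in M1 CM, and 11 of its members, among them Krt5, Krt14, Epcam and Cdh1, were under 1 CPM on average. The list of 9 fibroblast genes, mostly collagens, summed to 1471 to 1496 CPM in M2 CM and 1444 to 1542 CPM in M1 CM. The 14 macrophage genes summed to 22.5 to 25.1 CPM in M2 CM and 33.7 to 40.0 CPM in M1 CM, mostly Cd14, with 11 of them under 1 CPM and Itgam, Tyrobp, C1qa and C1qb without a count. Their part in the differences below was not tested.

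The cells of the 2 media differed over a large part of the transcriptome. In M2 CM 4036 genes rose (27.8% of those tested) and 4121 fell (28.4%), 56.2% in both directions together, and the values of the 3 and 3 libraries did not overlap for 59.8% of genes. The shares of 27.8% and 28.4% are the background for all counts of list members below. Most of the differences were small, and the large ones were mostly falls. At 2-fold or more 323 genes rose (2.23%) and 978 fell (6.74%). At 10-fold or more 27 rose and 191 fell, and at 50-fold or more 7 rose and 80 fell. The median log2 difference of all tested genes was -0.02. The first principal component of the 6 libraries held 81.9% of the variance and separated the media, and the second held 4.92%.

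**Figure D1:**
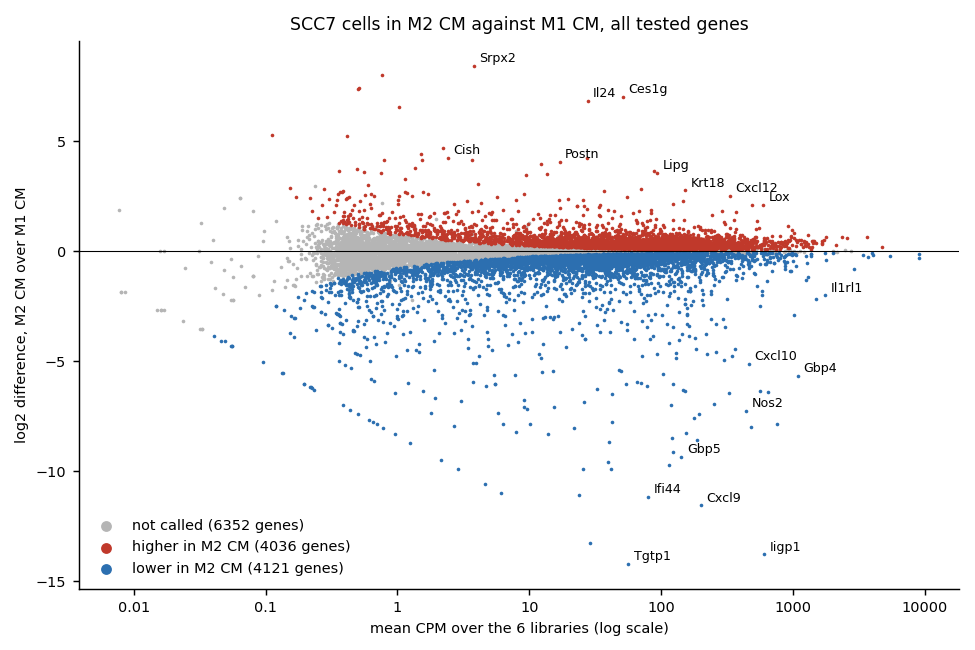
Each point is 1 of the 14509 tested genes, with its mean CPM over the 6 libraries on a log axis across and its log2 difference (M2 CM over M1 CM) upwards. Genes called higher in M2 CM are red (4036), genes called lower blue (4121) and others grey. The lower arm reaches further than the upper one, with Cxcl9 at -11.55 and Ces1g at 7.01, and the diagonal edge at the lower left holds genes with no count in M2 CM, whose fitted difference depends on the prior count.

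Genes of cell-autonomous defence against intracellular pathogens were among the deepest falls in M2 CM. Iigp1, an immunity-related GTPase that attacks the vacuoles of parasites, had 0.0929, 0.150 and 0 CPM in M2 CM, against 1224, 1176 and 1217 CPM in M1 CM. In M2 CM this gene was close to silent, with 5 counts over the 3 libraries, against 75459 in M1 CM. It was low in M0 CM too, with 0.468, 0.199 and 0.289 CPM, or 21 counts. Tgtp1, of the same family, had no count in M2 CM and 7076 in M1 CM, and set against 3 counts, the most that 0 allows over the group, it was at least 2357-fold lower in M2 CM. Igtp had 3.81, 3.96 and 3.47 CPM in M2 CM, against 997, 937 and 936 CPM in M1 CM. All 11 tested immunity-related GTPases fell, with a median log2 difference of -8.00. Over M0 CM the median of the list was -0.43 for M2 CM and 7.70 for M1 CM. The regulatory member Irgm1 fell by less than Iigp1, Tgtp1 and Igtp, with 24.0 ± 1.16 CPM in M2 CM against 658 ± 26.2 CPM in M1 CM (log2 difference -4.78 ± 0.044; means ± SD, n = 3 each, here and below).

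Guanylate-binding proteins, interferon-induced GTPases that coat and break open such vacuoles, behaved likewise. All 11 fell, with a median of -7.08. Over M0 CM their median was -0.39 for M2 CM and 6.93 for M1 CM. Gbp5, which also promotes inflammasome assembly, had 0.325, 0.552 and 0.428 CPM in M2 CM, against 287, 294 and 271 CPM in M1 CM (log2 difference -9.34 ± 0.12, adjusted p = 3.74e-28). Gbp2 had 12.3, 14.5 and 13.8 CPM in M2 CM, against 1079, 1156 and 1109 CPM in M1 CM, and 25.9 ± 0.687 CPM in M0 CM (log2 difference -6.37 ± 0.054, adjusted p = 4.95e-42). For Gbp2 the M2 CM values lay under those of M0 CM, and M1 CM stood apart from both. Gbp4 averaged 42.0 ± 1.28 CPM in M2 CM against 2138 ± 39.7 CPM in M1 CM, and the smallest difference of the family was that of Gbp9 (-4.43). Members of these families, and of the Ifit, Oas, H2, Serpina3 and Ces1 families below, have near-identical copies, and the counting of reads shared between copies is not given, so single members are uncertain.

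All 38 tested antiviral interferon-stimulated genes fell too, with a median of -4.36. Over M0 CM their median was -0.25 for M2 CM and 4.08 for M1 CM. Ifi44 had 0.0464, 0.1003 and 0.0475 CPM in M2 CM, against 165, 161 and 151 CPM in M1 CM. Mx2, annotated as a polymorphic pseudogene, had 3 counts in M2 CM and 3220 in M1 CM, a ratio of 1072 in favour of M1 CM (exact binomial 95% interval 367 to 5203). This interval, like those of Acod1 and Srpx2 below, pools the 3 libraries of a group. It covers counting error alone and leaves out the spread between libraries. Oas2, a sensor of double-stranded RNA, averaged 0.0977 ± 0.0847 CPM in M2 CM against 78.2 ± 4.02 CPM in M1 CM. Zbp1, a nucleic acid sensor that can start necroptosis, averaged 0.979 ± 0.200 CPM in M2 CM against 371 ± 7.64 CPM in M1 CM (log2 difference -8.56 ± 0.076, adjusted p = 1.36e-55). These genes are among the largest falls, which were named only where the 3 and 3 values did not overlap. Towards the other end of the list Ifit2 was 44.1 against 109 CPM on average (log2 difference -1.30 ± 0.053). Ifitm3, a membrane protein that hinders viral entry, was abundant in both media, with 172 ± 10.1 CPM in M2 CM against 958 ± 27.3 CPM in M1 CM (log2 difference -2.48 ± 0.038).

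Most factors of the STAT and IRF families were lower in M2 CM. Irf1 had 61.6, 65.0 and 57.7 CPM in M2 CM, against 523, 534 and 509 CPM in M1 CM, and 71.9 ± 2.38 CPM in M0 CM (log2 difference -3.09 ± 0.040, adjusted p = 1.45e-48). M2 CM and M1 CM did not overlap for Irf1, as for 59.8% of all genes, and its M2 CM mean lay closer to M0 CM than to M1 CM. Stat2 (-3.96), Irf9 (-3.33) and Irf7 (-5.99) fell as well, and so did Stat3 by less (-0.98). Stat6, the factor downstream of the IL-4 receptor, was 1.17-fold higher in M2 CM, at 142 ± 4.93 CPM in M2 CM against 122 ± 3.94 CPM in M1 CM, and Irf3 also rose (0.28). Of 14 tested STAT and IRF genes 2 rose and 9 fell; Stat5a, Stat5b and Batf3 did not pass.

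Cytokine receptors went both ways. The interferon-gamma receptor chain Ifngr2 rose (84.8 ± 1.97 CPM in M2 CM against 62.8 ± 2.57 CPM in M1 CM; log2 difference 0.43 ± 0.045), while Ifngr1 had 42.4 against 40.3 CPM and did not pass (adjusted p = 0.261, edgeR). Jak2 fell (32.4 ± 3.16 CPM in M2 CM against 76.2 ± 2.06 CPM in M1 CM; log2 difference -1.23 ± 0.058). Il4ra, the IL-4 receptor chain, was slightly lower in M2 CM, with 52.9, 53.3 and 53.7 CPM in M2 CM, against 64.9, 60.3 and 62.9 CPM in M1 CM (log2 difference -0.23 ± 0.048, adjusted p = 3.86e-05). The decoy receptor for interleukin-13, Il13ra2, rose, with 13.0, 12.6 and 12.9 CPM in M2 CM, against 4.05, 3.61 and 3.27 CPM in M1 CM (log2 difference 1.81 ± 0.15, adjusted p = 3.63e-15). It was nearly absent in M0 CM, at 0.0425, 0.0497 and 0.0482 CPM. The shared gp130 chain Il6st rose (0.63), and its partner Osmr fell (-1.40). Of 19 tested receptors and JAKs 5 rose, near the 27.8% of all genes, and 11 fell, beside 28.4% of all genes.

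Antigen presentation by MHC class I was lower in M2 CM through the whole pathway except its general chaperones. B2m, the light chain of every class I molecule, had 531, 543 and 534 CPM in M2 CM, against 2431, 2485 and 2364 CPM in M1 CM (log2 difference -2.18 ± 0.029, adjusted p = 8.76e-48). H2-K1, a classical heavy chain, had 267, 268 and 263 CPM in M2 CM, against 803, 838 and 771 CPM in M1 CM (log2 difference -1.60 ± 0.034, adjusted p = 5.30e-39). The peptide transporter Tap1 was 13.7-fold lower in M2 CM, with 29.9 ± 2.45 CPM in M2 CM against 408 ± 3.31 CPM in M1 CM, and Nlrc5, the transactivator of class I genes, averaged 28.1 ± 2.77 CPM in M2 CM against 295 ± 12.6 CPM in M1 CM (log2 difference -3.39 ± 0.050). The M2 CM libraries of each of these 4 genes lay under all M1 CM libraries, and 59.8% of all genes had no overlap in either direction. Of 18 tested members 15 fell and 3 rose, and the 3 that rose were Calr (0.69), Pdia3 (0.40) and Canx (0.32), folding helpers of the endoplasmic reticulum that serve many other proteins. All 5 immunoproteasome genes fell (median -2.58), led by the catalytic subunit Psmb9 at 19.7 ± 2.53 CPM in M2 CM against 265 ± 15.8 CPM in M1 CM (log2 difference -3.75 ± 0.065). Of the MHC class II list only 3 of 10 genes passed the filter on low counts, and the invariant chain Cd74 averaged 0.0815 ± 0.0598 CPM in M2 CM against 0.911 ± 0.169 CPM in M1 CM.

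**Figure D2:**
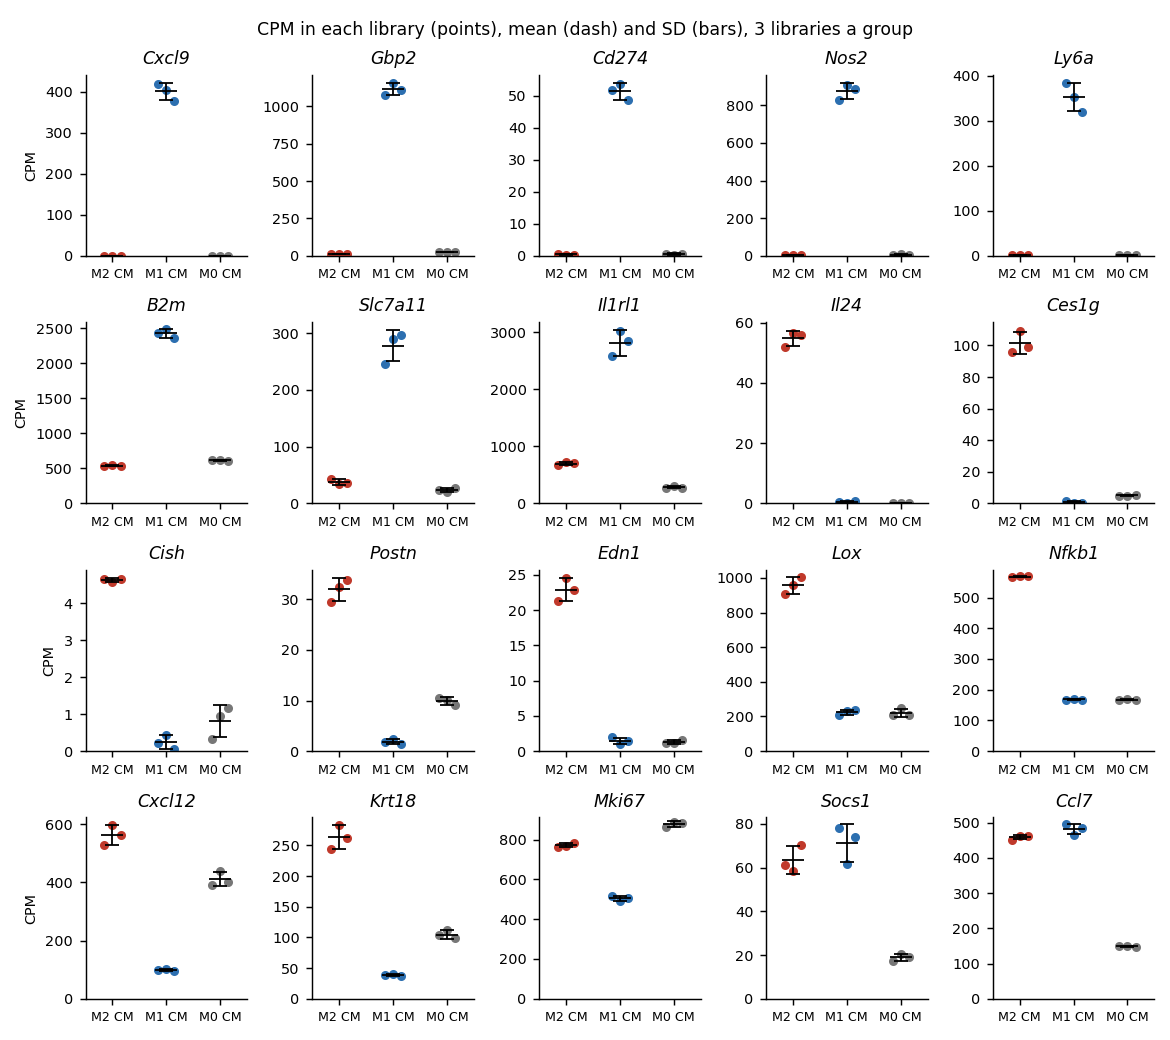
Each panel is 1 gene, with CPM upwards on a linear axis from 0 and the M2 CM (red), M1 CM (blue) and M0 CM (grey) libraries across; points are libraries, the dash is the mean and the bars the SD of 3 libraries. Cxcl9, Gbp2, Cd274, Nos2 and Ly6a were highest in M1 CM, Il24, Cish, Edn1, Lox and Nfkb1 highest in M2 CM, and Socs1 and Ccl7 were above M0 CM in both.

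Most CXC chemokines fell in M2 CM. The 3 ligands of the receptor CXCR3, which draw activated T cells and NK cells, were among them. Cxcl9 had 0.186, 0 and 0.190 CPM in M2 CM, against 418, 405 and 378 CPM in M1 CM. This was 8 counts in M2 CM over 3 libraries, beside an M0 CM level of 0.0610 ± 0.0208 CPM. Cxcl10 had 25.3, 27.8 and 25.4 CPM in M2 CM, against 947, 925 and 829.6 CPM in M1 CM, with 23.1 ± 1.12 CPM in M0 CM (log2 difference -5.11 ± 0.079, adjusted p = 2.92e-14), and Cxcl11 averaged 3.74 ± 0.408 CPM in M2 CM against 242 ± 13.8 CPM in M1 CM (log2 difference -6.02 ± 0.071). The neutrophil attractants Cxcl1 (237 ± 11.9 CPM in M2 CM against 506 ± 45.6 CPM in M1 CM; log2 difference -1.09 ± 0.060) and Cxcl5 (-1.99) fell by less. Cxcl12, the ligand of CXCR4, rose, with 527, 597 and 563 CPM in M2 CM, against 100.3, 102 and 95.7 CPM in M1 CM (log2 difference 2.503 ± 0.072, adjusted p = 1.21e-10). Its M0 CM level was 411 ± 24.9 CPM, so M1 CM held the lowest of the 3 levels. Of 10 tested CXC chemokines and Cx3cl1, 8 fell and 1 rose (2 rose without the third M2 CM library).

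Among the CC chemokines Ccl5 fell (11.99 ± 1.25 CPM in M2 CM against 218 ± 18.1 CPM in M1 CM; log2 difference -4.18 ± 0.065). Ccl2, which attracts monocytes, was 2.25-fold lower in M2 CM, with 831, 807 and 772 CPM in M2 CM, against 1649, 2143 and 1621 CPM in M1 CM. It was lower still in M0 CM, at 233 ± 10.7 CPM. Ccl7, a monocyte attractant too, did not pass. It had 452, 462 and 462 CPM in M2 CM, against 496, 466 and 484 CPM in M1 CM (adjusted p = 0.0577, edgeR), and 149.5, 149.9 and 148 CPM in M0 CM. The M2 CM values lay just under those of M1 CM, and both were well above M0 CM. Without the second M1 CM library Ccl7 passed as lower in M2 CM (-0.10, adjusted p = 0.0135), and likewise among genes of at least 1 CPM (-0.077, adjusted p = 0.0391). Ccl9 rose, to 13.2 ± 0.937 CPM in M2 CM against 2.62 ± 0.146 CPM in M1 CM (log2 difference 2.33 ± 0.15).

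Further immune genes of M1 CM were lower in M2 CM. Nos2, which makes nitric oxide, had 5.76, 5.47 and 5.80 CPM in M2 CM, against 826, 909 and 889 CPM in M1 CM (log2 difference -7.27 ± 0.072, adjusted p = 9.34e-27). Cd274, which encodes the checkpoint ligand PD-L1, had 0.650, 0.351 and 0.285 CPM in M2 CM, against 51.7, 53.8 and 48.7 CPM in M1 CM, and 0.504 ± 0.265 CPM in M0 CM (log2 difference -6.88 ± 0.16, adjusted p = 1.32e-37). The M2 CM and M0 CM levels of both genes were low and those of M1 CM high in every library. All 11 tested enzymes of immune metabolism fell (median -1.02), among them the prostaglandin synthase Ptgs2 (60.4 ± 4.77 CPM in M2 CM against 288 ± 43.4 CPM in M1 CM; log2 difference -2.25 ± 0.13) and Acod1, which makes itaconate and had 2 counts in M2 CM against 239 in M1 CM, a ratio of 119 in favour of M1 CM (exact binomial 95% interval 32.7 to 992). Of 13 checkpoint and NK cell ligands 5 fell, 2 rose and 6 did not pass, with 1 rise when any single library but the third of M1 CM was left out. Of all genes 28.4% fell and 27.8% rose. The NKG2D ligand Ulbp1 was among those that rose (111 ± 2.75 CPM in M2 CM against 43.4 ± 2.11 CPM in M1 CM; log2 difference 1.36 ± 0.046), and Cd47, the signal against phagocytosis, had 232 against 236 CPM (log2 difference -0.020 ± 0.034, adjusted p = 0.646).

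Complement and acute phase genes fell in part. Of 12 tested acute phase and STAT3 genes 7 fell, 2 rose and 3 did not pass, beside 28.4% of all genes that fell and 27.8% that rose. The complement protease C1s1 averaged 10.1 ± 0.670 CPM in M2 CM against 247 ± 24.2 CPM in M1 CM (log2 difference -4.61 ± 0.066), and 6 of 7 tested complement genes fell. C3, the centre of the cascade, was 501 ± 6.83 CPM in M2 CM against 747 ± 46.4 CPM in M1 CM (log2 difference -0.58 ± 0.041), above the 130.2 ± 7.17 CPM of M0 CM in both media. Serpina3f had no count in M2 CM and 768 in M1 CM, at least 256-fold lower in M2 CM against the same floor of 3 counts. The iron-binding protein Lcn2 (0.549 ± 0.214 CPM in M2 CM against 24.5 ± 1.27 CPM in M1 CM) and the serum amyloid Saa3 (0.129 ± 0.0312 CPM in M2 CM against 19.2 ± 3.14 CPM in M1 CM) fell as well.

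Death genes fell more often than they rose, 17 against 6 of 26 tested. Casp1, the inflammasome protease, averaged 48.6 ± 1.59 CPM in M2 CM against 253 ± 2.99 CPM in M1 CM (log2 difference -2.38 ± 0.040), its substrate Gsdmd 151 ± 9.98 CPM in M2 CM against 363 ± 5.15 CPM in M1 CM (log2 difference -1.26 ± 0.037), and the necroptosis effector Mlkl 78.7 ± 4.33 CPM in M2 CM against 222 ± 4.89 CPM in M1 CM (log2 difference -1.497 ± 0.039). The death receptor Fas was 3.34-fold lower in M2 CM, and the death ligand Tnfsf10 (TRAIL) averaged 0.128 ± 0.118 CPM in M2 CM against 9.26 ± 0.507 CPM in M1 CM. Ripk3 (0.22) and Bax (0.26) rose.

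NF-kB targets and the subunit Nfkb1 parted. Nfkb1, which encodes p105 and its product p50, had 566, 569 and 569.5 CPM in M2 CM, against 168, 169 and 168 CPM in M1 CM (log2 difference 1.76 ± 0.031, adjusted p = 3.24e-42). The M1 CM libraries were level with M0 CM, at 167 ± 1.59 CPM, and the M2 CM libraries lay 3.38-fold above M1 CM. Most other members fell: 15 of 21 tested fell and 4 rose. Tnfaip2 (29.1 ± 1.61 CPM in M2 CM against 112 ± 3.72 CPM in M1 CM; log2 difference -1.94 ± 0.049), Sod2, the mitochondrial superoxide dismutase (105 ± 1.37 CPM in M2 CM against 375 ± 11.9 CPM in M1 CM; log2 difference -1.83 ± 0.035), and the adhesion molecule Vcam1 (79.1 ± 3.92 CPM in M2 CM against 249.4 ± 14.7 CPM in M1 CM; log2 difference -1.66 ± 0.046) led the falls. Psmc4, an ATPase of the proteasome cap, also stood 2.68-fold higher in M2 CM, with 545, 507 and 508 CPM in M2 CM, against 201, 192 and 188 CPM in M1 CM, and 188 ± 6.08 CPM in M0 CM (log2 difference 1.42 ± 0.035, adjusted p = 6.12e-36).

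The genes that rose most in M2 CM were fewer and of mixed kinds. Il24, a secreted relative of interleukin-10, had 52.0, 56.5 and 55.9 CPM in M2 CM, against 0.360, 0.240 and 0.870 CPM in M1 CM (log2 difference 6.82 ± 0.16, adjusted p = 1.18e-34). It was nearly absent in M1 CM and in M0 CM, where it had 0.0757 ± 0.0670 CPM. Ces1g, a carboxylesterase that hydrolyses lipid esters, had 95.7, 109 and 99.1 CPM in M2 CM, against 1.35, 0.433 and 0.512 CPM in M1 CM, and 5.07 ± 0.489 CPM in M0 CM (log2 difference 7.01 ± 0.13, adjusted p = 2.80e-29). Here M1 CM lay under M0 CM and M2 CM above it. Srpx2, a secreted sushi-repeat protein, had 472 counts in M2 CM and 1 in M1 CM, a ratio of 472 (exact binomial 95% interval 84.4 to 18699). Lipg, the endothelial lipase, had 165, 177 and 174 CPM in M2 CM, against 14.5, 14.0 and 15.6 CPM in M1 CM (log2 difference 3.55 ± 0.058, adjusted p = 4.99e-44). Edn1, which encodes the vasoconstrictor endothelin-1, had 21.2, 24.5 and 22.9 CPM in M2 CM, against 1.93, 1.06 and 1.43 CPM in M1 CM, and 1.26 ± 0.242 CPM in M0 CM (log2 difference 3.94 ± 0.15, adjusted p = 9.15e-28). Aif1l, an actin-binding protein, averaged 162 ± 8.38 CPM in M2 CM against 13.2 ± 0.673 CPM in M1 CM (log2 difference 3.62 ± 0.059), the homeobox gene Msx3 51.5 ± 2.76 CPM in M2 CM against 2.78 ± 0.496 CPM in M1 CM (log2 difference 4.22 ± 0.10), the BMP antagonist Chrdl1 17.4 ± 1.039 CPM in M2 CM against 1.58 ± 0.275 CPM in M1 CM (log2 difference 3.47 ± 0.15), and Tnfrsf8, the CD30 receptor, 6.93 ± 0.364 CPM in M2 CM against 0.395 ± 0.284 CPM in M1 CM (log2 difference 4.15 ± 0.29). No overlap between the M2 CM and the M1 CM libraries was a condition for naming the largest rises, so its absence here adds nothing. It held for 59.8% of all genes.

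Genes that interleukin-4 and STAT6 are known to raise in various cells went both ways. Of 27 listed genes 15 passed the filter on low counts, of which 5 rose, 7 fell and 3 did not pass (median -0.23). The share that rose was near the 27.8% of all genes, and 28.4% of all genes fell. The 5 that rose were Il24, Il13ra2, Postn, Cdh26 (0.91) and Cish. Cish, a feedback inhibitor of STAT5, had 4.64, 4.56 and 4.66 CPM in M2 CM, against 0.225, 0.433 and 0.0512 CPM in M1 CM, and 0.814 ± 0.424 CPM in M0 CM (log2 difference 4.24 ± 0.37, adjusted p = 3.71e-14). Its 3 values in M2 CM lay close together and far above the others. Il1rl1, the receptor of interleukin-33, fell, with 667, 720.1 and 703 CPM in M2 CM, against 2580.3, 3025 and 2838 CPM in M1 CM, and 282 ± 18.2 CPM in M0 CM (log2 difference -2.01 ± 0.062, adjusted p = 2.96e-10), so M2 CM lay between the other media. Klf4 (42.3 ± 2.36 CPM in M2 CM against 148 ± 2.45 CPM in M1 CM; log2 difference -1.81 ± 0.046) and the transglutaminase Tgm2 (-1.204) fell too.

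Socs1, the feedback inhibitor shared by both cytokines, did not pass. It had 61.2, 58.3 and 70.5 CPM in M2 CM, against 78.0, 61.5 and 74.1 CPM in M1 CM (log2 difference -0.17 ± 0.087, adjusted p = 0.121, edgeR), and 17.5, 20.6 and 18.9 CPM in M0 CM. The M2 CM and M1 CM ranges overlapped, and both lay above M0 CM. Without the third M2 CM library, the one with the melanoma label, Socs1 passed as lower in M2 CM (-0.26, adjusted p = 0.00557), and likewise without the second M1 CM library (-0.26, adjusted p = 2.26e-04) and with no filter on low counts (-0.17, adjusted p = 0.00487). Socs3, which acts on gp130 receptors, fell (44.8 ± 2.11 CPM in M2 CM against 76.1 ± 1.38 CPM in M1 CM; log2 difference -0.76 ± 0.051), and Socs5 rose (0.56). Of 11 tested feedback inhibitors 6 did not pass.

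Promoters are shown for chosen genes among those named above and below, to let the letters be read beside the values. A window was shown only if it held a match to a motif sought in that gene. They are RefSeq windows of build GRCm38.p6 from 250 bases before to 50 bases after the start, 5′ to 3′ on the gene's strand, with positions counted from the start, 1 being its first base. Capitals mark matches on either strand to GAS (TTCNNNGAA), ISRE (GAAANNGAAA), the wider spaced STAT6-type sequence (TTCNNNNGAA), an amino acid response element (TGATGNAA), kB (GGGNNTTTCC) and a sterol element (TCACNCCAC), all 6 searched in each window. Chac1 is a stress gene described below. Tgtp1 lies at chr11:48992197-48992496, minus strand, with a GAS match from -88 and an ISRE match from -77. Gbp5 lies at chr3:142496684-142496983, plus strand, with GAS matches from -245 and -52, an ISRE match from -165 and a kB match from -77. Irf1 has 2 windows, and the one shown lies at chr11:53769764-53770063, plus strand, with a GAS match from -90. The other window of Irf1 had no GAS match and is not shown. Cish lies at chr9:107296409-107296708, plus strand, with GAS matches from 1 and 12. Edn1 lies at chr13:42301226-42301525, plus strand, with a STAT6-type match from -185 and an ISRE match from -78, and Chac1 at chr2:119350992-119351291, plus strand, with a STAT6-type match from -216 and an amino acid response element from -193.
Tgtp1: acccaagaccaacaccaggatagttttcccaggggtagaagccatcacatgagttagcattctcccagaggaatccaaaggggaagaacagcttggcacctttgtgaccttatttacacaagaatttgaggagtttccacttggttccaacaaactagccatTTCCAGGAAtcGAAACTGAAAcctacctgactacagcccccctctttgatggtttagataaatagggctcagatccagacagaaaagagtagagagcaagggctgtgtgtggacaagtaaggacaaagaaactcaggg
Gbp5: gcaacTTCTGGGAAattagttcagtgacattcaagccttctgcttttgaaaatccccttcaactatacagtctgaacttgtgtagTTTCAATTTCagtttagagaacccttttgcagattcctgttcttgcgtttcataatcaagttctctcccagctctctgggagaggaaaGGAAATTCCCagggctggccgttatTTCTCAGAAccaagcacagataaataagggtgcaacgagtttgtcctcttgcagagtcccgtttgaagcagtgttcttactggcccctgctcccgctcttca
Irf1: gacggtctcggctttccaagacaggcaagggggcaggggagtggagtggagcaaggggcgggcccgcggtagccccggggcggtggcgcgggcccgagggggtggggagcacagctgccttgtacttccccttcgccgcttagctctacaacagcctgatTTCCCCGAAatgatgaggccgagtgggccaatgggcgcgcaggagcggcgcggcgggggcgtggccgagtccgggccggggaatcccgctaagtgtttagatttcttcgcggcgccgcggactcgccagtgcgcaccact
Cish: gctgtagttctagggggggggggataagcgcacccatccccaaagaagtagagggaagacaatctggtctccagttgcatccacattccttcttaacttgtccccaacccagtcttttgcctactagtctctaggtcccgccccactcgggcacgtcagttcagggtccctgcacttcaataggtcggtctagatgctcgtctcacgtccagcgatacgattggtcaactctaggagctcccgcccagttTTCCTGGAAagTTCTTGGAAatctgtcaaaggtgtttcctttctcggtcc
Edn1: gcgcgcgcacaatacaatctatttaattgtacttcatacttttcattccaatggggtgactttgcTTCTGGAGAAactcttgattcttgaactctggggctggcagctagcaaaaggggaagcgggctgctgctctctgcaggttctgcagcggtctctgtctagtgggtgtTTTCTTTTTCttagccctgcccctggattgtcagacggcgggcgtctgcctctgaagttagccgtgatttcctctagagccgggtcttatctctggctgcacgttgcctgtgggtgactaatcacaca
Chac1: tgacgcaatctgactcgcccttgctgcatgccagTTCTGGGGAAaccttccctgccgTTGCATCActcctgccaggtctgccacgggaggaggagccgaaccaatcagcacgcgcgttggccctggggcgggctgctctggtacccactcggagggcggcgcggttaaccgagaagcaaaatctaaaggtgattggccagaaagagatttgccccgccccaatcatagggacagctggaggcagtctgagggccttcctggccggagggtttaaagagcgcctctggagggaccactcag

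Matches were counted in the promoters of the 50 largest rises and the 50 largest falls beside all promoters of the table, as a description. An ISRE was found in 18 of 42 promoters of the falls (42.9%), in 2 of 40 promoters of the rises (5%) and in 3.44% of all 32851 promoters. A GAS sequence was found in 21.4% of promoters of the falls, 2.5% of the rises and 8.30% of all. The STAT6-type sequence was about as frequent in both sets, at 10% of the rises and 9.52% of the falls, with 6.95% of all. The kB sequence was in 3 promoters of the falls and 1 of the rises (1.63% of all). The sterol element was in 2 promoters of the rises and 1 of the falls (1.24% of all). The amino acid response element was in 9 of 35 promoters of the amino acid and stress list described below (25.7%), in 3 of 40 promoters of the rises (7.5%) and 1 of 42 of the falls (2.38%), and in 3.97% of all. All promoters include those of genes not tested here. In the 12739 promoters of tested genes the shares were 3.10% for ISRE, 6.81% for GAS and 5.48% for the STAT6-type sequence. They were 2.31% for the amino acid response element, 1.74% for kB and 1.17% for the sterol element. The STAT6-type sequence was in 0 of 16 promoters of the IL-4 and STAT6 list, the sterol element in 1 of 23 of the cholesterol list and the kB sequence in 7 of 19 of the NF-kB list. Promoters were matched by symbol for 33 of the 50 rises and 37 of the 50 falls, some genes having several starts, and 9976 of 14505 tested symbols had one. A GAS and an ISRE match may share bases, and a match is no evidence of binding.

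**Figure D3:**
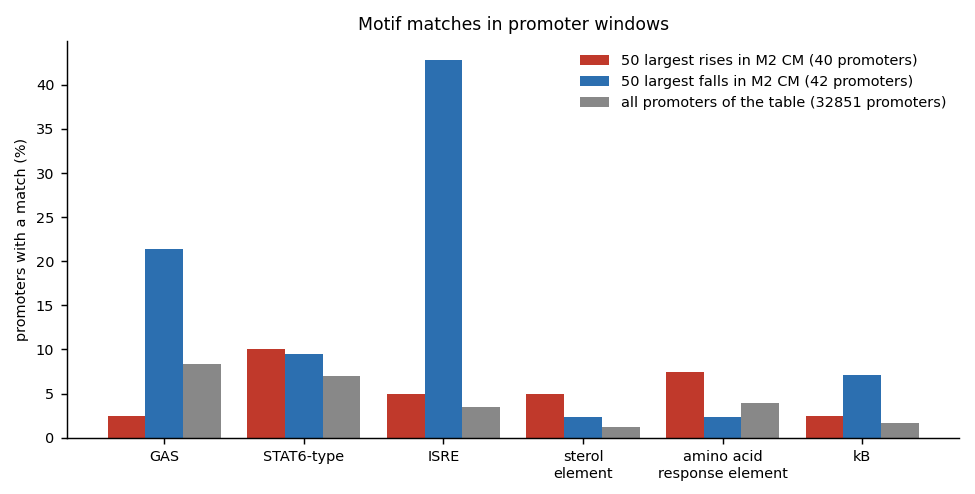
Bars give the percent of promoter windows with at least 1 match, upwards from 0, for 6 motifs across, in the 50 largest rises in M2 CM (red, 40 promoters), the 50 largest falls (blue, 42 promoters) and all 32851 promoters of the table (grey). The ISRE and GAS bars of the falls stand above the grey bars, at 42.9% and 21.4%. The grey set includes genes that were not tested.

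Amino acid transporters and enzymes and other genes of the integrated stress response were lower in M2 CM. This response is led by ATF4, which raises amino acid transporters, synthetic enzymes and further factors such as CHOP. Of 35 tested members 34 fell and 0 rose (median -1.08, against -0.02 for all genes). Slc7a11, the cystine transporter, had 43.2, 34.2 and 36.6 CPM in M2 CM, against 246, 290.5 and 296 CPM in M1 CM, and 23.5 ± 3.58 CPM in M0 CM (log2 difference -2.87 ± 0.12, adjusted p = 2.74e-08). Chac1, which degrades glutathione, had 17.0, 15.6 and 16.3 CPM in M2 CM, against 68.8, 90.5 and 76.8 CPM in M1 CM (log2 difference -2.27 ± 0.10, adjusted p = 2.07e-09). In both the M2 CM values lay above those of M0 CM, and M1 CM was higher by far. Trib3 (23.5 ± 0.391 CPM in M2 CM against 121 ± 10.9 CPM in M1 CM; log2 difference -2.36 ± 0.066), Cth, which makes cysteine (10.6 ± 0.217 CPM in M2 CM against 66.5 ± 8.10 CPM in M1 CM; log2 difference -2.65 ± 0.079), and Asns, the asparagine synthetase (120.4 ± 2.87 CPM in M2 CM against 268 ± 16.5 CPM in M1 CM; log2 difference -1.15 ± 0.037), fell, and Atf4 itself was 484 ± 6.28 CPM in M2 CM against 899 ± 67.0 CPM in M1 CM (log2 difference -0.89 ± 0.037). Slc7a3 was the only tested member that did not pass, with 1.54 against 0.999 CPM (it passed as higher without the second M2 CM library, at 0.86, adjusted p = 0.0293). Of the cytosolic aminoacyl-tRNA synthetase list 14 of 22 fell and 7 rose. Wars, which interferon-gamma also raises, led at 74.1 ± 2.93 CPM in M2 CM against 259 ± 17.5 CPM in M1 CM (log2 difference -1.80 ± 0.041), and Hars rose most (0.32).

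Antioxidant and lysosomal genes were mostly lower as well. Of 23 NRF2-linked genes 16 fell and 4 rose. Hmox1, the heme oxygenase, had 115, 101 and 109.8 CPM in M2 CM, against 254, 304 and 290.3 CPM in M1 CM (log2 difference -1.38 ± 0.11, adjusted p = 3.11e-06), and its M2 CM level was that of M0 CM, at 108 ± 5.91 CPM. The peroxiredoxin Prdx1 (677 ± 8.29 CPM in M2 CM against 1264 ± 80.8 CPM in M1 CM; log2 difference -0.90 ± 0.052) and the ferritin chain Fth1 (2085 ± 54.7 CPM in M2 CM against 3652 ± 94.3 CPM in M1 CM; log2 difference -0.81 ± 0.031) followed. Of 19 lysosome and iron genes 16 fell, with the cholesterol exporter Npc2 at 178 ± 5.60 CPM in M2 CM against 401 ± 18.1 CPM in M1 CM (log2 difference -1.17 ± 0.035) and the cathepsins Ctsb (-0.68) and Ctsl (-0.66). Tfeb, a master factor of lysosome genes, was the 1 that rose (18.2 ± 1.24 CPM in M2 CM against 10.7 ± 1.11 CPM in M1 CM; log2 difference 0.77 ± 0.093). Slc7a11 is on the NRF2 and the amino acid list, and some other genes are on more than 1 list, so lists are not independent.

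**Figure D4:**
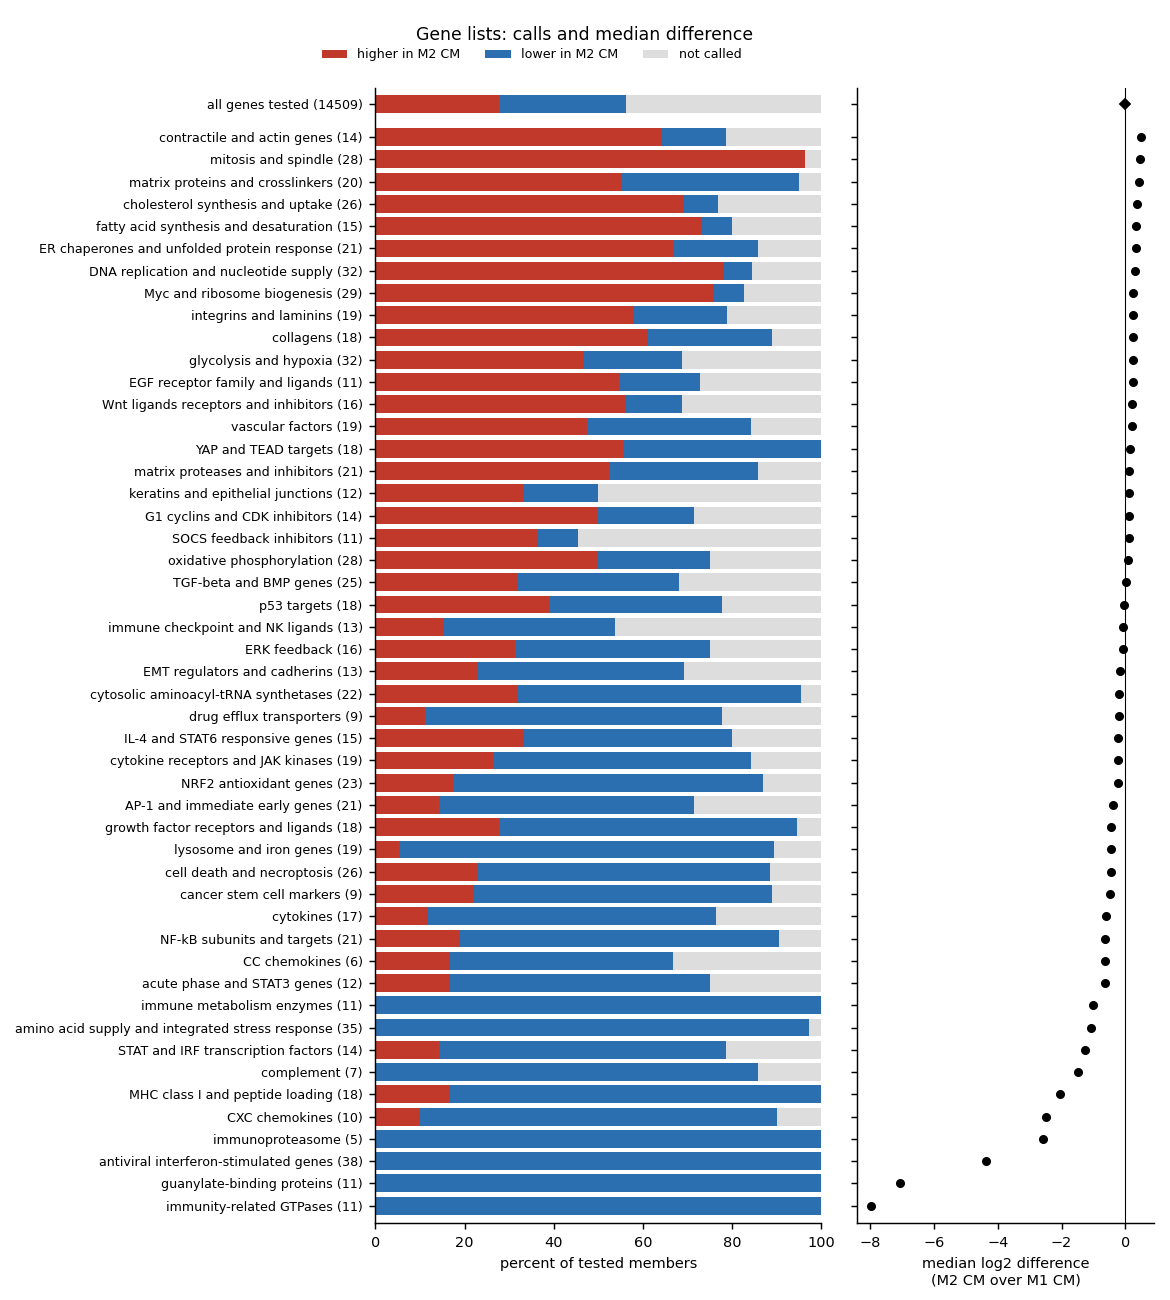
Left, bars give for 49 gene lists (tested members in brackets) and, at the top, for all 14509 genes the percent of tested members higher in M2 CM (red), lower (blue) and not called (grey); right, points give the median log2 difference of each list. Immunity-related GTPases (-8.00) and guanylate-binding proteins (-7.08) lie at the bottom and contractile and actin genes (0.49) at the top, and the median of all genes is -0.02.

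Secretory and lipid genes leaned the other way. Of 21 endoplasmic reticulum chaperones and unfolded protein response genes 14 rose and 4 fell (median 0.32). Hspa5, the chaperone BiP, had 1154, 1256 and 1152 CPM in M2 CM, against 733, 768 and 747 CPM in M1 CM (log2 difference 0.66 ± 0.031, adjusted p = 3.39e-24). Hsp90b1 (0.68) and Pdia6 (0.64) rose likewise, while Dnajb9 (-0.77) and Herpud1 (-0.56) fell. Of 26 genes of cholesterol synthesis and uptake 18 rose and 2 fell (median 0.38), with 1 fall without the first M1 CM library. Idi1, the isopentenyl isomerase, had 117, 128 and 124 CPM in M2 CM, against 58.4, 50.9 and 63.3 CPM in M1 CM, and 94.1 ± 3.01 CPM in M0 CM (log2 difference 1.10 ± 0.053, adjusted p = 1.22e-18). Hmgcs1, the synthase at the head of the mevalonate pathway, averaged 221 ± 5.45 CPM in M2 CM against 144 ± 4.22 CPM in M1 CM (log2 difference 0.62 ± 0.035), near the 231 ± 4.42 CPM of M0 CM. The M1 CM level was the lowest of the 3 media for both genes. Of 15 genes of fatty acid synthesis 11 rose, among them Fasn (1218 ± 21.9 CPM in M2 CM against 806 ± 43.6 CPM in M1 CM; log2 difference 0.60 ± 0.033) and Elovl6 (0.69), and Fads1 fell (-0.21), with 2 falls without the second M1 CM library.

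Energy metabolism was mixed. Of 32 glycolysis and hypoxia genes 15 rose and 7 fell, beside 27.8% and 28.4% of all genes. Adm, the vasodilator adrenomedullin, had 42.3, 41.6 and 45.4 CPM in M2 CM, against 12.2, 9.43 and 13.0 CPM in M1 CM (log2 difference 1.90 ± 0.16, adjusted p = 1.89e-06), and Ldha, lactate dehydrogenase, averaged 2144 ± 49.0 CPM in M2 CM against 1386 ± 49.1 CPM in M1 CM (log2 difference 0.63 ± 0.030). Hk2, which phosphorylates glucose (49.7 ± 0.635 CPM in M2 CM against 112 ± 7.70 CPM in M1 CM; log2 difference -1.17 ± 0.078), and Ndrg1 (-1.33) fell. Of 28 genes of oxidative phosphorylation 14 rose and 7 fell (4 without the third M2 CM library and 4 without the second M1 CM library), most by less than these, with Ndufa4 at 0.77 and Ndufa1 at -0.42 as the extremes. The share that fell was near the 28.4% of all genes.

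Proliferation genes were higher in M2 CM than in M1 CM, by small folds in most members. Of 28 mitosis and spindle genes 27 rose and 0 fell (median 0.46), beside 27.8% of all genes that rose. Cdc20, the activator of the anaphase-promoting complex, had 305, 301 and 297 CPM in M2 CM, against 161, 143 and 158 CPM in M1 CM (log2 difference 0.96 ± 0.037, adjusted p = 1.78e-27). Mki67, the Ki-67 antigen, had 764, 770.2 and 784 CPM in M2 CM, against 516, 490.1 and 506 CPM in M1 CM, and 877 ± 13.9 CPM in M0 CM (log2 difference 0.62 ± 0.030, adjusted p = 1.42e-23). For Mki67 the order was M0 CM, then M2 CM, then M1 CM, with no overlap between media. M2 CM and M1 CM did not overlap for 59.8% of all genes. Plk1 (0.77) and Cdk1 (0.58) rose too, and Top2a was the 1 member that did not pass, with 764 against 767 CPM. Of 32 genes of DNA replication and nucleotide supply 25 rose and 2 fell (median 0.31). Ung, which removes uracil from DNA, led with 20.5 ± 0.780 CPM in M2 CM against 8.25 ± 0.916 CPM in M1 CM (log2 difference 1.32 ± 0.092), and Rrm2 (0.63), Tyms (0.63) and Mcm5 (0.56) are further examples of the rises. Cdc45 (-0.13) and Cdt1 (-0.10) were the 2 that fell, 0 doing so without the first M2 CM library or the first M1 CM library and 1 without the second M2 CM library, the third M2 CM library or the third M1 CM library, and neither passed DESeq2's Wald test (adjusted p = 0.109 for Cdc45 and 0.108 for Cdt1) or edgeR's without the first M1 CM library (adjusted p = 0.211 and 0.153).

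Ribosome biogenesis moved with it. Of 29 tested genes of Myc and ribosome biogenesis 22 rose and 2 fell (median 0.25), with 1 fall without any single M2 CM library. Fbl, the methyltransferase fibrillarin, had 299, 316 and 285 CPM in M2 CM, against 186, 203 and 182 CPM in M1 CM (log2 difference 0.66 ± 0.038, adjusted p = 9.45e-19), and Ncl, nucleolin, averaged 1923 ± 60.7 CPM in M2 CM against 1396 ± 48.1 CPM in M1 CM (log2 difference 0.46 ± 0.029). Myc had 204, 205 and 217 CPM in M2 CM, against 174, 183 and 189 CPM in M1 CM, with 111 ± 6.20 CPM in M0 CM (log2 difference 0.20 ± 0.037, adjusted p = 1.31e-05). The Myc antagonist Mxd1 fell (3.87 ± 0.276 CPM in M2 CM against 11.6 ± 1.201 CPM in M1 CM; log2 difference -1.58 ± 0.14). Among the G1 cyclins and inhibitors 7 of 14 rose, with Ccne2 at 50.9 ± 2.43 CPM in M2 CM against 29.8 ± 1.76 CPM in M1 CM (log2 difference 0.77 ± 0.078), and Cdkn1a (p21) had 132 against 150.4 CPM (adjusted p = 0.0894), though it passed as lower without the first M1 CM library (-0.26, adjusted p = 0.00834) and with no filter on low counts (-0.19, adjusted p = 2.33e-04). The p53 targets were even, 7 higher and 7 lower of 18, beside 27.8% and 28.4% of all genes. Ccng1 (0.87) rose, and Mdm2 (242 ± 1.86 CPM in M2 CM against 419.9 ± 51.6 CPM in M1 CM; log2 difference -0.80 ± 0.071) and Fas fell.

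**Figure D5:**
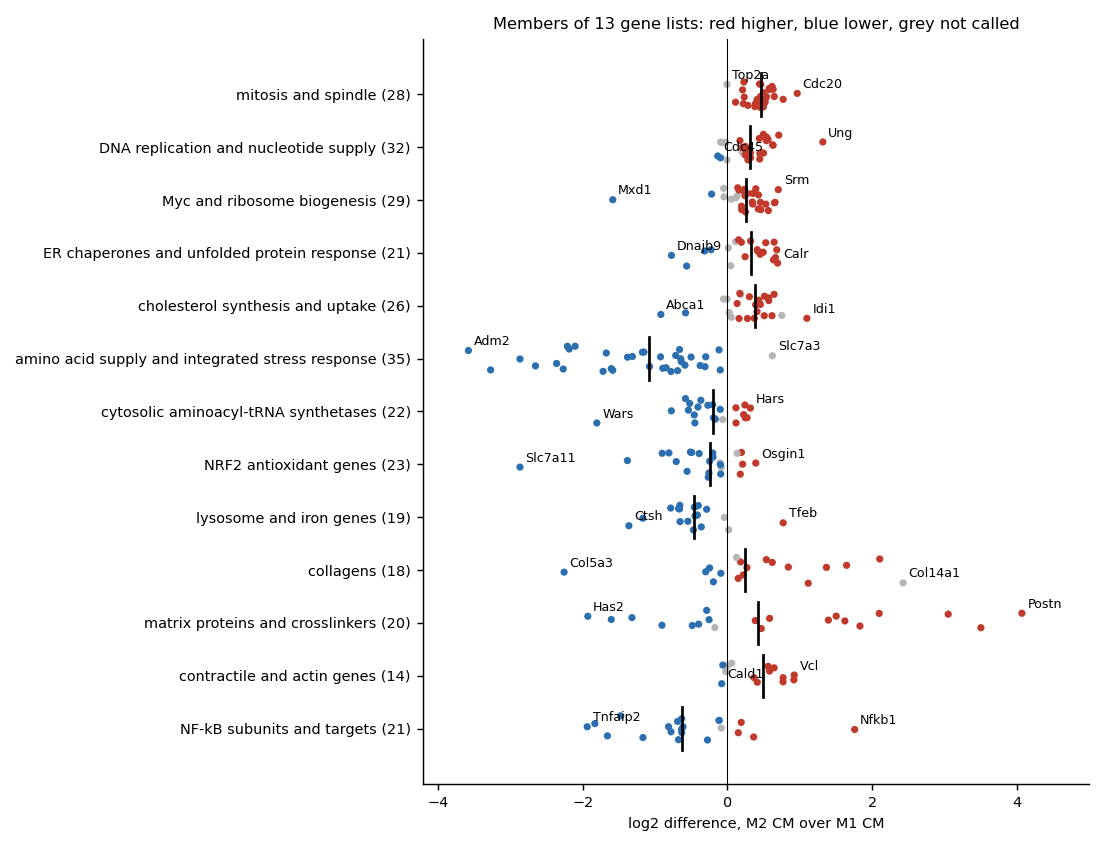
Each point is a tested member of 1 of 13 gene lists, with its log2 difference (M2 CM over M1 CM) across; red members rose, blue fell, grey were not called, the bar is the median and the lowest and highest members are named. Mitosis genes lie between -0.0064 (Top2a) and 0.96 (Cdc20), amino acid and stress genes mostly left of 0, and matrix proteins on both sides, up to Postn at 4.07.

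Matrix genes went both ways. Postn, periostin, a matricellular protein that binds integrins, had 29.5, 32.5 and 33.9 CPM in M2 CM, against 1.89, 2.45 and 1.33 CPM in M1 CM, and 9.95 ± 0.727 CPM in M0 CM (log2 difference 4.07 ± 0.14, adjusted p = 1.78e-26). Tnc, tenascin-C, had 23.8, 25.7 and 26.1 CPM in M2 CM, against 2.70, 1.54 and 2.40 CPM in M1 CM, and 8.23 ± 0.988 CPM in M0 CM (log2 difference 3.50 ± 0.15, adjusted p = 3.80e-20). In both genes M1 CM was the lowest and M2 CM the highest of the 3 media. Lox, lysyl oxidase, which crosslinks collagen, had 908, 958 and 1006 CPM in M2 CM, against 207, 229 and 236 CPM in M1 CM (log2 difference 2.10 ± 0.080, adjusted p = 1.06e-08), while M0 CM was level with M1 CM at 220.3 ± 23.9 CPM. Of 20 matrix proteins and crosslinkers 11 rose and 8 fell (median 0.43). Has2, the hyaluronan synthase (5.24 ± 0.256 CPM in M2 CM against 20.0 ± 1.24 CPM in M1 CM; log2 difference -1.93 ± 0.10), and decorin, Dcn (4.10 ± 0.403 CPM in M2 CM against 12.5 ± 0.601 CPM in M1 CM; log2 difference -1.61 ± 0.13), fell.

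Of 18 tested collagens 11 rose and 5 fell. The chains of collagen VI rose together: Col6a1 had 377, 364 and 369 CPM in M2 CM, against 128, 111 and 116 CPM in M1 CM (log2 difference 1.65 ± 0.038, adjusted p = 2.09e-37), Col6a2 averaged 55.3 ± 1.45 CPM in M2 CM against 12.8 ± 1.03 CPM in M1 CM (log2 difference 2.10 ± 0.071) and Col6a3 268 ± 4.74 CPM in M2 CM against 123 ± 10.1 CPM in M1 CM (log2 difference 1.12 ± 0.074). Col1a1, of the main fibrillar collagen, differed little between the media (232 ± 3.63 CPM in M2 CM against 204 ± 13.3 CPM in M1 CM; log2 difference 0.18 ± 0.040), and both lay under M0 CM, at 483 ± 18.6 CPM. Col5a3 fell (26.6 ± 0.623 CPM in M2 CM against 127 ± 3.06 CPM in M1 CM; log2 difference -2.26 ± 0.050).

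Proteases that act on the matrix went both ways. Adamts1, an aggrecanase, had 237, 244 and 245 CPM in M2 CM, against 49.2, 50.5 and 52.1 CPM in M1 CM (log2 difference 2.26 ± 0.043, adjusted p = 1.48e-39), and Adamts5 (33.1 ± 2.82 CPM in M2 CM against 6.31 ± 1.053 CPM in M1 CM; log2 difference 2.39 ± 0.10) and Plau, the urokinase activator (61.9 ± 2.26 CPM in M2 CM against 17.2 ± 1.01 CPM in M1 CM; log2 difference 1.85 ± 0.066), rose with it. Mmp3 (0.288 ± 0.0115 CPM in M2 CM against 3.84 ± 0.367 CPM in M1 CM) and Mmp13 (0.851 ± 0.520 CPM in M2 CM against 5.66 ± 0.286 CPM in M1 CM) fell, both at low levels. The inhibitor Timp2 averaged 1288 ± 33.2 CPM in M2 CM against 669 ± 27.9 CPM in M1 CM (log2 difference 0.95 ± 0.031). In all 11 of 21 proteases and inhibitors rose and 7 fell. Of 19 integrins and laminins 11 rose, with Lamb3 (9.65 ± 1.08 CPM in M2 CM against 1.74 ± 0.153 CPM in M1 CM; log2 difference 2.46 ± 0.17) and Lamb1 (745 ± 10.1 CPM in M2 CM against 355 ± 7.65 CPM in M1 CM; log2 difference 1.07 ± 0.030) among them, and 4 fell, with Itgb7 (21.9 ± 0.558 CPM in M2 CM against 158 ± 8.35 CPM in M1 CM; log2 difference -2.85 ± 0.052) lowest.

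The simple keratins Krt8 and Krt18, which pair in one filament, rose together. Krt18 had 245, 283 and 262 CPM in M2 CM, against 38.3, 40.7 and 37.5 CPM in M1 CM, and 105 ± 6.80 CPM in M0 CM (log2 difference 2.76 ± 0.075, adjusted p = 1.19e-12). Krt8 had 432, 472 and 456 CPM in M2 CM, against 130.4, 128 and 128 CPM in M1 CM, and 267 ± 8.57 CPM in M0 CM (log2 difference 1.82 ± 0.036, adjusted p = 2.93e-40). For both the order was M2 CM, M0 CM, M1 CM. Krt16, a stress keratin, fell (0.861 ± 0.112 CPM in M2 CM against 6.29 ± 0.693 CPM in M1 CM; log2 difference -2.86 ± 0.26), and Trp63, the squamous master factor, was near the limit of detection in both media (1.07 ± 0.176 CPM in M2 CM against 0.124 ± 0.0902 CPM in M1 CM; log2 difference 3.01 ± 0.52). Of 28 listed keratins and junction genes only 12 passed the filter on low counts. Among 13 regulators of the epithelial to mesenchymal transition and cadherins 6 fell and 3 rose, beside 28.4% and 27.8% of all genes. Their log2 differences ran from -1.95 to 5.26. At 2-fold or more 2 of them fell and 1 rose, beside 6.74% and 2.23% of all genes. Prrx1 (85.2 ± 3.94 CPM in M2 CM against 329.5 ± 8.36 CPM in M1 CM; log2 difference -1.95 ± 0.037) and Twist2 (-1.27) fell, and Vim, vimentin, was 3811 ± 51.2 CPM in M2 CM against 4299 ± 106 CPM in M1 CM (log2 difference -0.17 ± 0.029).

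Cytoskeletal and mechanosensitive genes were higher in part. Of 14 contractile and actin genes 9 rose and 2 fell (median 0.49), with 0 falls without the first M2 CM library and 1 without any other single library but the third of M1 CM. Vcl, vinculin of focal adhesions, had 322, 331 and 334 CPM in M2 CM, against 174, 176 and 170.2 CPM in M1 CM (log2 difference 0.92 ± 0.035, adjusted p = 3.50e-28), and caveolin, Cav1, averaged 391 ± 9.15 CPM in M2 CM against 229.8 ± 8.63 CPM in M1 CM (log2 difference 0.77 ± 0.034). Of 18 YAP and TEAD targets 10 rose and 8 fell, beside 27.8% and 28.4% of all genes. Ccn1 (179 ± 7.44 CPM in M2 CM against 67.9 ± 3.45 CPM in M1 CM; log2 difference 1.39 ± 0.051), Ccn2 (7.34 ± 1.26 CPM in M2 CM against 0.885 ± 0.300 CPM in M1 CM; log2 difference 3.05 ± 0.22) and Ankrd1 (134 ± 8.66 CPM in M2 CM against 48.2 ± 4.96 CPM in M1 CM; log2 difference 1.48 ± 0.066) rose, and Crim1 (37.8 ± 0.936 CPM in M2 CM against 87.7 ± 2.18 CPM in M1 CM; log2 difference -1.22 ± 0.046) and Axl, a receptor kinase (-0.52), fell. Genes of TGF-beta and BMP signalling were 8 higher and 9 lower of 25, near the shares of all genes (27.8% and 28.4%), with Id2 up (0.82) and Pmepa1 down (-1.17). Log2 differences in this list ran from -1.17 to 2.59. At 2-fold or more 2 members rose and 1 fell, beside 2.23% and 6.74% of all genes.

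Growth factor genes went both ways. Ereg, epiregulin, a ligand of the EGF receptor, had 70.7, 66.0 and 74.5 CPM in M2 CM, against 222, 237 and 281 CPM in M1 CM (log2 difference -1.81 ± 0.10, adjusted p = 1.62e-07). Hbegf, another ligand, rose (25.6 ± 0.338 CPM in M2 CM against 14.0 ± 0.521 CPM in M1 CM; log2 difference 0.87 ± 0.076), and so did Errfi1, an inhibitor of the receptor (427 ± 10.8 CPM in M2 CM against 171 ± 6.69 CPM in M1 CM; log2 difference 1.32 ± 0.035), and Egfr itself (0.54). The PDGF receptors Pdgfrb (7.71 ± 0.457 CPM in M2 CM against 29.7 ± 2.21 CPM in M1 CM; log2 difference -1.95 ± 0.084) and Pdgfra (168 ± 3.60 CPM in M2 CM against 263 ± 9.997 CPM in M1 CM; log2 difference -0.64 ± 0.036) fell, and M0 CM held Pdgfrb at 40.7 ± 1.502 CPM, above both media. Of 18 tested growth factor receptors and ligands 12 fell and 5 rose, the largest rise being Igfbp6 (767 ± 10.8 CPM in M2 CM against 302 ± 5.35 CPM in M1 CM; log2 difference 1.35 ± 0.037). Of 21 AP-1 and immediate early genes 12 fell and 3 rose (1 without the third M2 CM library), with Ier3 (179.5 ± 15.4 CPM in M2 CM against 404 ± 39.6 CPM in M1 CM; log2 difference -1.17 ± 0.091) among the falls. Of 16 ERK feedback genes 5 rose, near the 27.8% of all genes, and 7 fell, beside 28.4% of all genes.

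Of 19 vascular factors 9 rose and 7 fell. Beside Edn1 and Adm, Angptl4 (74.5 ± 4.44 CPM in M2 CM against 24.6 ± 1.73 CPM in M1 CM; log2 difference 1.59 ± 0.069) and the guidance factor Sema3a (217 ± 4.15 CPM in M2 CM against 81.2 ± 5.15 CPM in M1 CM; log2 difference 1.42 ± 0.042) rose. Vegfa, the main angiogenic factor, fell, with 111, 109 and 111 CPM in M2 CM, against 135, 163 and 179 CPM in M1 CM (log2 difference -0.52 ± 0.10, adjusted p = 0.00183), and so did Angpt1 (2.51 ± 0.176 CPM in M2 CM against 10.3 ± 0.511 CPM in M1 CM; log2 difference -2.03 ± 0.15). Wnt genes rose in 9 and fell in 2 of 16, with the inhibitor Dkk3 (7.08 ± 0.200 CPM in M2 CM against 1.55 ± 0.116 CPM in M1 CM; log2 difference 2.19 ± 0.18) and Wnt10b (1.17) higher and Wnt5a (-0.82) lower. The Wnt rises were 6 to 8 with any single library left out and 10 with only the 6 libraries, beside 27.8% of all genes. Of 9 drug efflux transporters 6 fell, among them Abcb1a (9.82 ± 0.716 CPM in M2 CM against 21.5 ± 1.27 CPM in M1 CM; log2 difference -1.13 ± 0.088), and Abcg2 rose (10.4 ± 1.06 CPM in M2 CM against 5.85 ± 0.772 CPM in M1 CM; log2 difference 0.82 ± 0.13). Ly6a, the antigen Sca-1, used as a stem cell marker in the mouse and raised by interferon, had 2.28, 1.55 and 1.62 CPM in M2 CM, against 383, 354 and 320.3 CPM in M1 CM, and 2.17 ± 0.680 CPM in M0 CM (log2 difference -7.59 ± 0.16, adjusted p = 5.00e-11). Of 9 tested cancer stem cell markers, Ly6a included, 6 fell and 2 rose (1 without the first M1 CM library), beside 28.4% and 27.8% of all genes. At 2-fold or more 2 of them fell and 0 rose. All others moved less than Ly6a, and examples are Sox2 at -0.66, Cd44 at -0.13 and Bmi1 at 0.29.

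Of the tested cytokine genes, Il24 included, most were lower in M2 CM, 11 of 17 tested. Il15, which sustains NK cells and memory T cells, averaged 9.66 ± 1.39 CPM in M2 CM against 65.8 ± 2.55 CPM in M1 CM (log2 difference -2.77 ± 0.078). Csf3, the granulocyte factor, averaged 0.221 ± 0.138 CPM in M2 CM against 7.67 ± 0.449 CPM in M1 CM (log2 difference -5.06 ± 0.30), and Lif, of the interleukin-6 family, 39.9 ± 0.395 CPM in M2 CM against 60.4 ± 4.52 CPM in M1 CM (log2 difference -0.60 ± 0.054). Csf1, the macrophage growth factor, was 1288 ± 25.3 CPM in M2 CM against 1422 ± 27.1 CPM in M1 CM and differed by -0.14 on the log2 scale. Mif had 934 against 932 CPM and did not pass (log2 difference 0.004 ± 0.029, adjusted p = 0.919).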

How the data were processed

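Sequencing libraries were made from Trizol-extracted RNA, per the labels' protocols. The authors deposited raw read counts per Ensembl gene, unscaled, and the submitters' processing notes name HISAT2 2.0 and mm10. No source used here gives the counter, annotation release or strand setting, so overlapping and antisense genes cannot be told apart. Of 55487 identifiers 55227 matched a GENCODE M21 symbol. The fit used edgeR 4.0.16 in R 4.3.3 (filterByExpr, TMM, robust glmQLFit, 1 mean per group over all 12 libraries, glmQLFTest of M2 CM minus M1 CM). SE is the log2 difference over the square root of F, and understates counting error where a group is well under 1 CPM, about 20 counts in a library. Genes removed by the filter held 0.0815% of counts. Named genes were the 15 largest rises and falls (at least 2 CPM in the higher group, no overlap, no predicted genes), the 8 largest each at 200 CPM or more, the 4 largest called members and the most abundant member of each list, and a panel. A further 46 list members were named after their values were seen, and some results are not reported here. The lists, panel and members were chosen with earlier results of these data known. Alternatives were DESeq2 1.42.0, other scaling and filters, only the 6 libraries, a replicate term, glmTreat, and each library left out. Steps were tested on simulated data. Replicate pairs had Pearson's r of 0.992 to 0.994 across genes, none identical. Motif matches were counted in Python 3.11, and figures used matplotlib 3.10.9.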

Additional observations from a re-analysis of the deposited data

How the results depend on the processing

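No named gene called in the report was called in the opposite direction under any of the 14 alternatives. Apart from glmTreat against a 1.5-fold change, which called 387 genes higher in M2 CM and 1026 lower, they gave 3752 to 4194 genes higher and 3617 to 4145 lower, and leaving out 1 library gave 3752 to 3882 and 3839 to 4025. Deviations of same-numbered libraries of the 2 groups correlated weakly across genes (-0.00075, 0.018 and 0.030). Those of differently numbered libraries ran from -0.029 to 0.010. Such weak correlations cannot settle whether the numbers pair the libraries. With the replicate block 4074 genes were higher and 4145 lower, and Socs1 passed as lower (-0.17, adjusted p = 0.0307). Of 291 named genes 7 lost a call and 4 gained one under some alternative other than glmTreat. Small differences carry this limit, since glmTreat did not call 79 of the 282 that were called. The median of the p53 targets, the TGF-beta and BMP genes and the keratins changed sign when some single library was left out. At this depth genes under about 1 CPM are limited by counting.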
